A study of Mus musculus with 10 samples.

Results

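The comparison described here asks whether hearts without the atypical protein kinase C isoform PKCz respond to angiotensin II (AngII) as wild-type hearts do. Its measure is the interaction: the log2 difference between AngII and PBS in mice lacking PKCz (KO, labelled PKCz −/−) minus the same difference in wild type (WT). It used all 10 arrays of the series. The mice were male SV129 littermates aged 32 weeks. AngII was infused subcutaneously from osmotic minipumps at 432 µg/kg/day for 14 days, with PBS as the control; the source label calls the controls non-treated, whereas titles and design name PBS. RNA came from the heart, in 4 groups: WT PBS (2 arrays), WT AngII (3), KO PBS (3) and KO AngII (2). An array is called by its group and the number in its title (3 and 5 in WT PBS; 3 and 4 in KO AngII; 2, 3 and 4 in the other groups). No label states whether each array is a different animal. P-values here therefore reflect the spread between samples alone, part of which may be technical. Of 45101 probe sets, 45037 were tested after 64 controls were left out. A gene, of 18193, is represented by its brightest probe set, and values are log2 expression; differences are given ± SE and group means ± SD.

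AngII is a peptide hormone that acts through a receptor coupled to the G protein alpha-q, raises blood pressure and enlarges the heart. The heart then typically makes more natriuretic peptides, fetal sarcomere proteins and extracellular matrix. PKCz is an atypical PKC isoform, and the title of the series places it between alpha-q and ERK5, a mitogen-activated kinase. Immediate early genes, such as Egr1, Fos and Nr4a1, are transcribed within minutes of a stimulus and shut off again soon after.

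Some arrays stood apart in ways that touch the interaction. The 24 bacterial spike-in control probe sets averaged 6.90 to 7.08 on both KO AngII arrays and on KO PBS 4. The 7 remaining arrays read 12.86 to 13.33. Every KO AngII array therefore has low spike-in signal and every WT array high signal, and only KO PBS holds both, so apart from KO PBS 4 the signal level and the KO AngII group cannot be told apart. With spike-in level as a block the KO effect rests on KO AngII 3 and 4 against KO PBS 4 alone. WT AngII 2 had 390 probe sets more than 1 log2 unit from its group mean, against 5 to 87 elsewhere. The log2 difference between 3′ and 5′ actin control probe sets, a sign of RNA quality, was also lowest on the 3 low spike-in arrays, at 0.74, 0.75 and 0.83, against 0.92 to 1.70 elsewhere, with 1.70 on WT PBS 5. The 18S rRNA control signal was highest on WT PBS 3 (9.39) and WT PBS 5 (8.18), against 6.65 to 8.07 elsewhere. The part of these signs in the results was not tested. Values without WT AngII 2 or with the block stand beside many of the results.

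The targeted gene was read first. Prkcz read 6.23 to 6.45 on the 5 WT arrays and 5.70 to 5.87 on the 5 KO arrays. Averaged over treatments, KO minus WT was −0.53, and permuting genotype within treatment gave an exact p = 0.01 (two-sided), the lowest that 100 arrangements can reach. The groups did not overlap. Whether this probe set lies in the deleted part is unknown here. The values show that it separates the labelled genotypes, not that it reads the deletion itself. The AngII effect on Prkcz differed between genotypes by 0.08 ± 0.18 (95% interval −0.31 to 0.47).

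No probe set had an AngII response that differed between genotypes at an adjusted p under 0.05: limma called 0 of 45037 (0%), with a smallest adjusted p of 0.99999. At an unadjusted p under 0.05 there were 737 (1.64%), of which 520 (1.15%) lay above 0, the KO effect being the higher, and 217 (0.482%) below. If no probe set differed, this threshold would be expected to pass a share of 0.05, so 1.64% is no excess. The other 9 settings of the fit also called 0. At an unadjusted p under 0.05 the lowest share was 281 of 22519 brighter probe sets (1.25%). The highest was 3201 of 45037 with array weights (7.11%), above the share of 0.05. The next highest was 4.67%, with the spike-in block without WT AngII 2. Leaving out WT PBS 5, KO AngII 3 or KO AngII 4 called 1, 2 and 1, and leaving out any other array 0. The AngII effect itself gave 0 calls in WT (2356 at an unadjusted p under 0.05, 5.23%) and 0 in KO (2060, 4.57%). Both shares lie near the 0.05 expected without any effect. The median SE of the interaction was 0.22, and for 16536 genes (90.9%) its 95% interval lay within 1 log2 unit of 0. For the other genes the arrays leave room for differences of 2-fold or more. In size, 47 genes had an interaction of at least 1 log2 unit, 35 above 0 and 12 below.

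Across the 18193 genes, the WT and KO effects, which share no array, correlated with a Pearson r of 0.49 (0.48 without WT AngII 2 and 0.24 with the spike-in block). Genes are not independent replicates, and all arrays were normalised together, so r only describes how the effects line up.

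**Figure D1:**
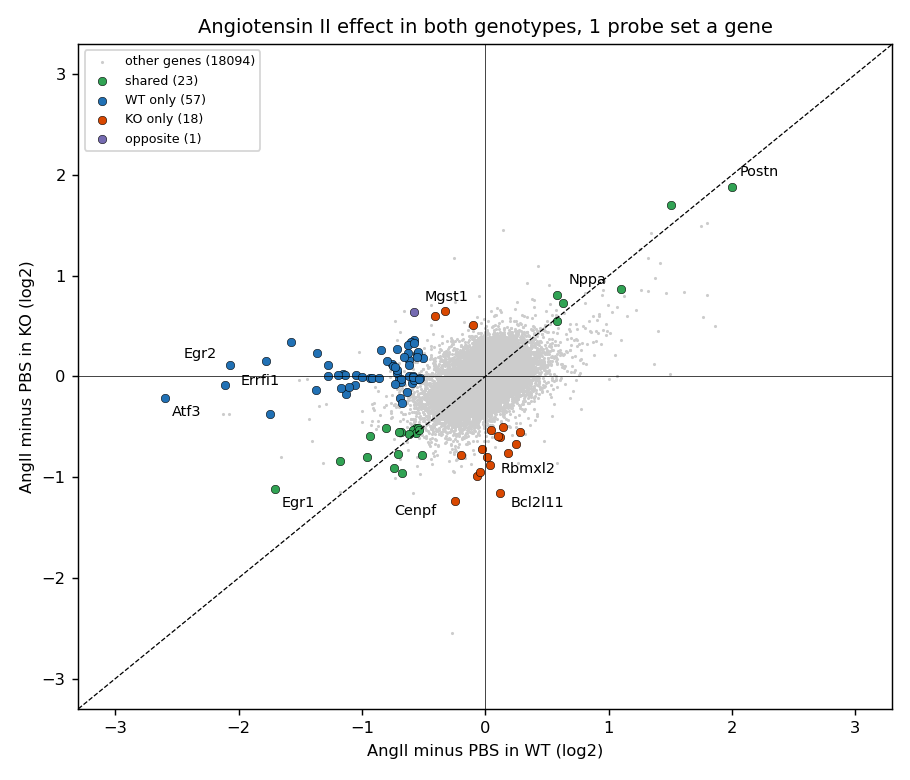
Each point is 1 gene, with its AngII minus PBS difference in WT on the x axis and in KO on the y axis (both log2, group means of 2 or 3 arrays); the dashed line marks equal effects. The 57 WT only genes lie left of 0 at a KO effect near 0, the 18 KO only genes lie above or below 0 at a small WT effect, and the 23 shared genes, such as Postn and Egr1, lie nearer the line.

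Responses were sorted by a rule that counts a probe set as responding in a genotype at an unadjusted p under 0.05 and a difference of at least 0.5. A shared response passes in both genotypes in 1 direction, and an opposite response in opposite directions. A response in 1 genotype only also needs an unadjusted interaction p under 0.05. There were 67 shared probe sets (0.149% of those tested), 137 WT only (0.304%), 63 KO only (0.14%) and 4 opposite (0.00888%). In genes, these were 23 (0.126%), 57 (0.313%), 18 (0.0989%) and 1 (0.0055%). A further 461 probe sets passed in WT and 480 in KO with no interaction past the rule, and stay unresolved. The classes rest on unadjusted p-values and describe these arrays; with adjusted p-values all 4 were empty.

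Single arrays moved these counts. The WT only count was 390 without WT AngII 2, 276 without WT PBS 3, 247 without WT PBS 5 and 223 without WT AngII 3. It was 87 without KO PBS 4, 80 without KO AngII 3 and 82 without KO AngII 4. The KO only count was 542 without KO PBS 4, the low spike-in array of its group, and 155 without WT AngII 2. It was 28 without WT PBS 3 and 30 without KO PBS 3. The shared count was 159 without KO PBS 4, 136 without WT PBS 3 and 110 without WT AngII 2, and it was 34, 22 and 20 without KO AngII 4, WT PBS 5 and KO PBS 3. The opposite count was 14 without KO PBS 2, 10 without WT AngII 2, 7 without WT PBS 5, and 2 without WT PBS 3, KO PBS 3 or KO AngII 3. Of the 137 WT only probe sets, 90 (65.7%) kept their class with the spike-in block, where the class held 186; of the 63 KO only, 16 (25.4%) did, where it held 57. Of the 67 shared, 10 (14.9%) did, and of the 4 opposite, 0.

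**Figure D2:**
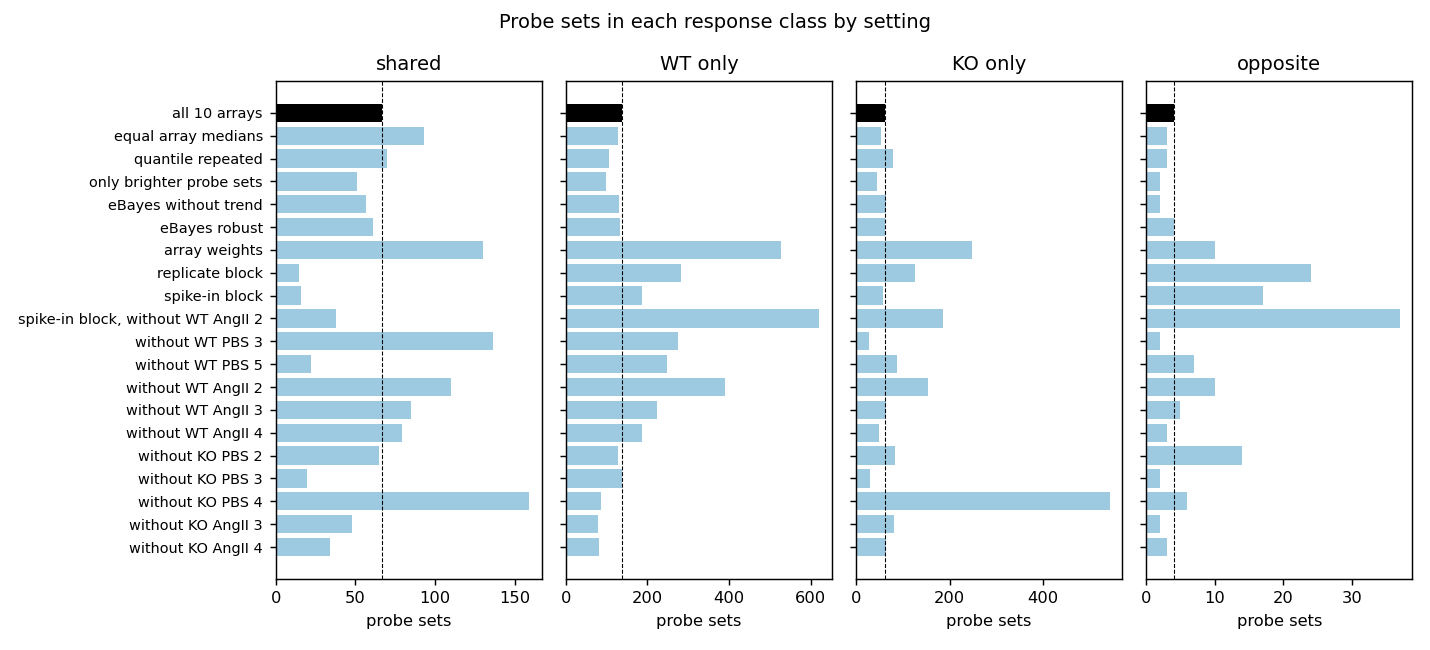
Bars count the probe sets in each response class (x axis) under each setting of the fit and each array left out, with the class rule unchanged (y axis); the black bar and dashed line mark the fit to all 10 arrays. Over the arrays left out, the WT only class runs from 80 to 390 probe sets and the KO only class from 28 to 542; the longest WT only bar, 621, is the spike-in block without WT AngII 2.

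In the fit to all arrays, the WT only genes had a single direction. All 57 were lower under AngII than under PBS in WT, as were 131 of the 137 probe sets. In KO, 32 of the 57 lay above 0 and 25 below. The direction of the WT only probe sets moved with the setting. Without WT AngII 3, 102 were higher and 121 lower in WT. With array weights, where WT AngII 4 weighed 7.20 and the other arrays 0.22 to 1.57, 134 were higher and 393 lower. The spike-in block without WT AngII 2 gave 107 higher and 514 lower. With the spike-in block alone, 3 were higher and 183 lower, and without KO PBS 4, 3 and 84. In 40 of the 57 (70.2%), both WT PBS arrays read above all 8 other arrays, against 4.02% of all genes; the rule used these arrays, so the share only describes the class. The WT PBS mean was the group farthest from the others in 46 of the 57 (80.7%, against 31.9% of all genes). WT AngII was farthest in the remaining 11 (19.3%, against 17.4%). The rule asks for a WT response without a KO response, which favours a WT group as the farthest, so these shares also only describe the class.

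Of the 57 WT only genes, 10 are among the 42 immediate early genes listed (0.313% of all genes are in the class): Atf3, Btg2, Csrnp1, Egr2, Errfi1, Gadd45g, Ier5, Ifrd1, Nr4a1 and Nr4a3. Ifrd1, a transcriptional co-regulator, read 9.71 and 9.69 on the WT PBS arrays, 8.67, 8.63 and 8.68 with WT AngII, 8.92, 8.77 and 8.54 with KO PBS, and 8.69 and 8.82 with KO AngII. WT PBS stood above the other arrays by more than their whole range, and the KO groups overlapped. The WT effect was −1.05 ± 0.15, the KO effect 0.01 ± 0.15 and the interaction 1.06 ± 0.21 (unadjusted p = 0.00031; 0.95 to 1.14 leaving out each array, 1.26 with the spike-in block). Errfi1, which encodes an inhibitor of the EGF receptor, read 10.09 and 10.90 in WT PBS, 9.25, 8.22 and 8.68 in WT AngII, 8.54, 8.72 and 7.77 in KO PBS, and 8.34 and 8.65 in KO AngII. In WT it was 3.42-fold lower with AngII, in KO 1.11 times its PBS level, and its interaction was 1.93 ± 0.48 (95% interval 0.87 to 2.98). A dimmer Errfi1 probe set gave 1.05.

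Egr2, a zinc finger transcription factor, read 7.27 and 8.35 in WT PBS, but WT AngII 2 reached 6.95 where WT AngII 3 and 4 read 5.01 and 5.26. The KO arrays lay between 4.69 and 5.50. Its interaction was 2.18 ± 0.69, and 2.78 without WT AngII 2. Atf3, a stress-induced transcription factor, read 9.32 and 11.90 in WT PBS, 8.08, 7.56 and 8.40 in WT AngII, 8.77, 7.28 and 7.04 in KO PBS, and 7.55 and 7.42 in KO AngII. Its interaction of 2.39 ± 0.90 ranged from 1.10 to 3.68 when each array was left out, so its size depends on which WT PBS array is kept. Csrnp1, a nuclear transcriptional activator, gave 0.68 ± 0.21 (0.60 to 0.75 leaving out each array), with WT PBS at 8.75 and 8.84 and all other arrays at 7.98 to 8.29. Its dimmer probe set gave −0.12. The adjusted p of each of these genes was 0.99999.

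Over the whole list of 42 immediate early genes, 35 had an interaction above 0, against 48.6% of all genes, and the median was 0.42, against −0.0055 over all genes. At an unadjusted p under 0.05, 12 of the 42 (28.6%) lay above 0 and 0 below; over all genes these shares were 0.945% and 0.467%. No member passed the adjusted test. Members of all gene lists here were chosen with earlier results of these data known, so such shares only describe the lists. The median effect was −0.53 in WT and −0.02 in KO. In WT, 20 of the 42 had all AngII arrays below all PBS arrays, against 12.7% of all genes. The median interaction was 0.67 with the spike-in block, 0.45 without WT AngII 2, and 0.28 to 0.49 leaving out each array, lowest without KO PBS 4. Relative to the mean of all arrays, the list's level was 0.45 on WT PBS 3 and 0.84 on WT PBS 5; the other arrays lay between −0.50, on KO PBS 4, and 0.13, on WT AngII 2. The 18S rRNA signal was also highest on both WT PBS arrays, at 9.39 on WT PBS 3 and 8.18 on WT PBS 5. KO PBS 2 came close, at 8.07, where the list's level was 0.02. The actin 3′ to 5′ difference was highest, at 1.70, on WT PBS 5, where the list's level was also highest. The low spike-in arrays had the lowest actin differences (0.74 to 0.83) and the lowest levels of the list (−0.50 to −0.29). Other arrays departed from this order, such as WT AngII 3, with 1.33 and a list level of −0.28. The part of the 18S signal and of the actin difference was not tested.

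Not all of its members shared this pattern. Egr1, a zinc finger factor of the same family as Egr2, was lower with AngII in both genotypes, by −1.71 ± 0.43 in WT and −1.12 ± 0.43 in KO. It read 11.10 and 11.54 in WT PBS and 9.80, 9.52 and 9.53 in WT AngII, then 9.09, 10.42 and 8.60 in KO PBS and 7.79 and 8.71 in KO AngII, where the KO groups overlapped. With the spike-in block its KO effect was −0.35 and its interaction 1.36, against 0.59 without the block, and it passed the rule as WT only. Fos, a subunit of the AP-1 transcription factor, had a WT effect of −2.12 ± 0.61 and a KO effect of −0.37 ± 0.61, with an interaction of 1.75 ± 0.87 that missed the rule; with the block (2.83) or without WT AngII 2 (1.98) it was WT only. Junb, another AP-1 subunit, had −0.69 ± 0.40 and −0.82 ± 0.40. In bulk heart RNA, fewer cells of a type and less RNA per cell cannot be told apart.

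**Figure D3:**
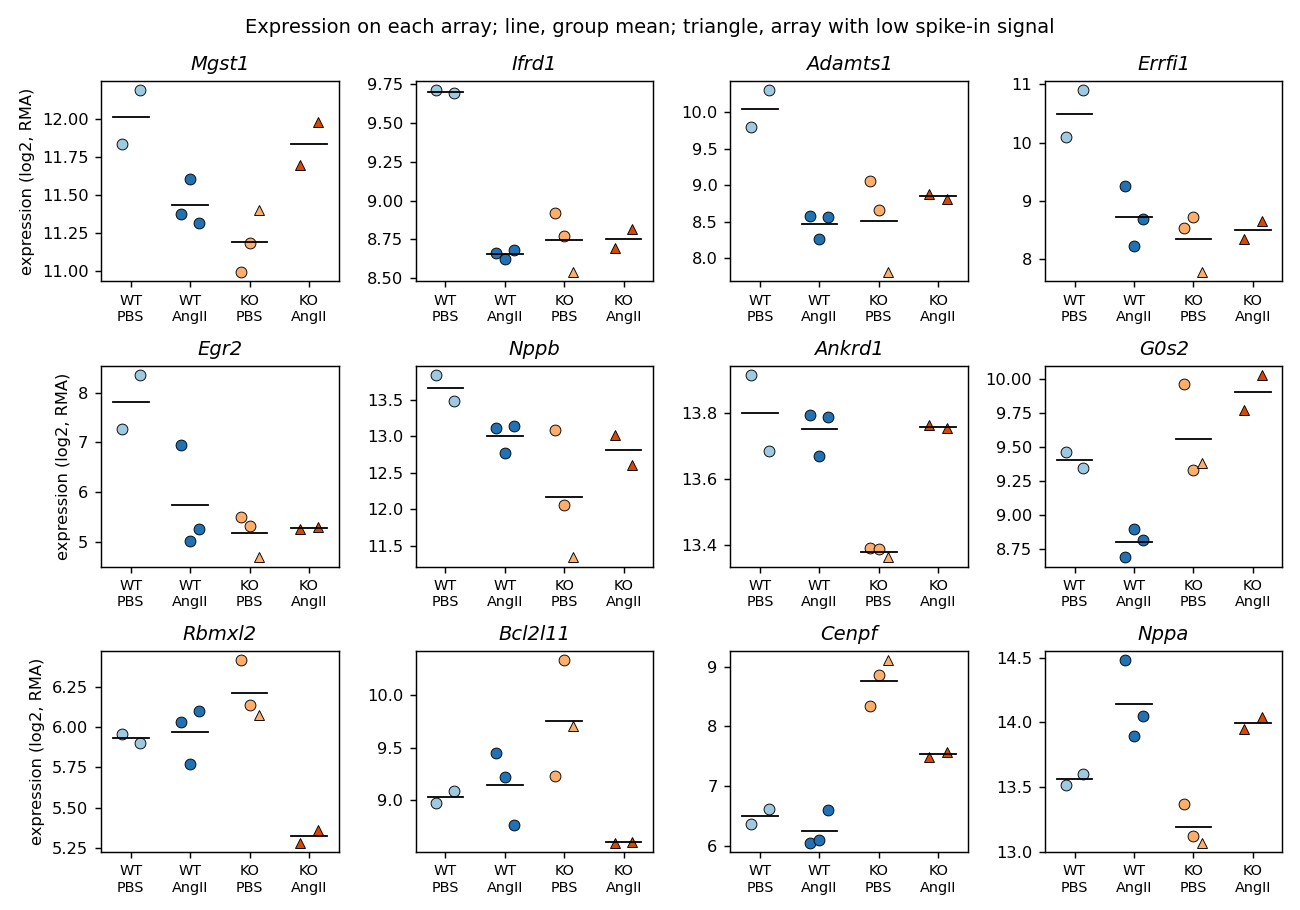
Each point is 1 array's log2 expression (y axis) of the gene named above the panel, by group (x axis); the line is the group mean and triangles are the 3 arrays with low spike-in signal. WT PBS stands above the other groups for Ifrd1, Adamts1, Errfi1 and Egr2, KO PBS stands below them for Ankrd1, and KO AngII stands below them for Rbmxl2 and Bcl2l11.

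The upstream sequences of immediate early genes are known to hold cAMP response elements and serum response elements, so the windows of the list were searched for both as a description. RefSeq windows of 250 bases up to the start site were available for 33 of the 42 genes (assembly GRCm38.p6, the first listed window where a gene has several). The letters TGACG, the core of a cAMP response element, occurred on either strand in 17 of the 33 (51.5%), against 4827 of 27025 genes in the table (17.9%). The CArG box, bound by serum response factor, occurred in 2 (6.06%), against 378 (1.4%). Of the 4 members with the smallest interaction p, Errfi1 and Egr2 had no match of either motif in that window. The other 2 are printed 5′ to 3′ on the gene's strand, with TGACG or its reverse complement in capitals: Ifrd1 from chr12:40223190-40223439 and Csrnp1 from chr9:119984743-119984992, both on the minus strand and ending at the base before the start site.
Ifrd1: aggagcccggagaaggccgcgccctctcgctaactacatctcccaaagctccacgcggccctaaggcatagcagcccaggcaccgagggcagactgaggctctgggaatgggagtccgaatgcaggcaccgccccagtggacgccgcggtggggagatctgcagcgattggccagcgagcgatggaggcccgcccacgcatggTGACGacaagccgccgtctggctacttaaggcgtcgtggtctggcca
Csrnp1: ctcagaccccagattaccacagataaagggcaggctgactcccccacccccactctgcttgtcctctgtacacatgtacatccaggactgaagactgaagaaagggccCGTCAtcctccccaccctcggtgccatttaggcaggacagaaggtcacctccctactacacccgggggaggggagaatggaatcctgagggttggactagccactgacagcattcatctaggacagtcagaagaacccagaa
A match is no evidence of binding, and these letters were not compared with the size of the interaction.

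Other WT only genes lie outside that list. Adamts1, a secreted metalloproteinase, read 9.80 and 10.30 in WT PBS, 8.58, 8.26 and 8.57 in WT AngII, 9.06, 8.67 and 7.81 in KO PBS, and 8.88 and 8.82 in KO AngII. Its WT effect was −1.58 ± 0.30, 2.99-fold lower, its KO effect 0.34 ± 0.30 and its interaction 1.92 ± 0.42 (2.62 with the block, where it passed as opposite). Otud1, a deubiquitinase, had an interaction of 2.02 ± 0.66, with WT PBS at 10.15 and 11.65 and the KO arrays at 7.80 to 9.34; leaving out each array gave 1.27 to 2.78. G0s2, an inhibitor of the lipase that opens triglyceride breakdown, read 9.46 and 9.35 in WT PBS and 8.69, 8.90 and 8.82 in WT AngII, against 9.97, 9.33 and 9.39 in KO PBS and 9.78 and 10.03 in KO AngII. Here the WT AngII arrays, not WT PBS, stood apart as the lowest of all, and the interaction was 0.94 ± 0.27. Amy1, an amylase, and Slc12a5, a potassium chloride cotransporter, had interactions of 0.97 ± 0.25 and 1.18 ± 0.31, with WT effects of −1.06 and −1.15 and KO effects of −0.08 and 0.02. Tmx1, a thioredoxin-like protein of the endoplasmic reticulum, and Kpna2, a nuclear import receptor, had 0.90 ± 0.26 and 0.53 ± 0.17. The 20 genes with the smallest interaction p include 6 more that are in no list described here: Dnase2a, a lysosomal nuclease, at −0.71 ± 0.22, and Sra1, Klrb1f, 6430571L13Rik, Gm5219 and 4930570E03Rik at 0.40 to 0.61.

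The gene with the smallest interaction p was Mgst1, the single gene of the opposite class, which encodes a microsomal glutathione transferase. It read 11.83 and 12.19 in WT PBS, 11.38, 11.60 and 11.32 in WT AngII, 10.99, 11.19 and 11.40 in KO PBS, and 11.70 and 11.97 in KO AngII. AngII arrays lay below PBS in WT and above PBS in KO, without overlap in either. The effects were −0.58 ± 0.16 and 0.64 ± 0.16 and the interaction 1.22 ± 0.23 (unadjusted p = 0.00017, adjusted p = 0.99999; 1.04 to 1.40 leaving out each array, 1.01 with the block). With the block the KO effect was 0.43, under the rule's minimum, and Mgst1 passed as WT only. Its dimmer probe set gave 0.25. Of all genes, 62 (0.341%) had this arrangement of WT AngII below and KO AngII above their controls without overlap, and 62 had the reverse.

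In the KO only class, 3 genes were higher and 15 lower with AngII in KO, but of its 63 probe sets 32 were higher and 31 lower. The direction moved with single arrays. Without KO PBS 4, 374 probe sets were higher and 168 lower, and without KO PBS 2, 27 were higher and 57 lower. KO AngII was the group farthest from the others in 16 of the 18 genes and KO PBS in 2, against 37.8% and 12.9% of all genes. The rule asks for a KO response without a WT response, which favours a KO group as the farthest, so these shares only describe the class. Both KO AngII arrays have low spike-in signal and a low actin 3′ to 5′ difference, whose part was not tested. Bcl2l11, which encodes the pro-apoptotic protein BIM, read 8.60 on both KO AngII arrays, against 9.23, 10.33 and 9.70 in KO PBS, 8.98 and 9.08 in WT PBS, and 9.45, 9.22 and 8.77 in WT AngII. Its KO effect was −1.16 ± 0.28, 2.23-fold lower, and its interaction −1.27 ± 0.39 (−1.22 with the block). Its 4 dimmer probe sets gave −0.82, −0.46, −0.68 and 0.25. Rbmxl2, an RNA-binding protein, read 5.28 and 5.36 in KO AngII, against 5.77 to 6.41 on the remaining 8, with an interaction of −0.92 ± 0.21. Cenpf, a kinetochore protein, read 8.34, 8.86 and 9.10 in KO PBS and 7.49 and 7.57 in KO AngII, where the WT arrays lay at 6.06 to 6.62. Its interaction was −0.99 ± 0.33, and both KO groups stood above WT.

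Pla2g5, a secreted phospholipase, had an interaction of −0.95 ± 0.38. Txnip, an inhibitor of thioredoxin, and Hlf, a clock-controlled transcription factor, had −0.91 ± 0.38 and −0.81 ± 0.34, with KO effects of −0.95 and −0.80. Chac1, an enzyme of glutathione breakdown, had −0.92 ± 0.37. With the block, Hlf and Chac1 no longer passed the rule. The 3 higher genes were Prg4, which encodes lubricin, at 1.01 ± 0.37, Edn3, an endothelin, at 0.98 ± 0.38, and Slfn5, a Schlafen family member, at 0.61 ± 0.27. With the block none of the 3 passed the rule, at 0.92, 0.84 and 0.36 in that order. For Prg4 the KO groups overlapped: PBS read 8.10, 7.37 and 7.87 and AngII 8.72 and 8.05.

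Shared responses, where both genotypes passed the rule, took in 6 genes that were higher and 17 that were lower with AngII. Postn, which encodes the matrix protein periostin, read 8.72 and 9.70 in WT PBS, 13.55, 9.92 and 10.16 in WT AngII, 8.88, 9.18 and 8.76 in KO PBS, and 10.43 and 11.21 in KO AngII. The WT mean rests on WT AngII 2: the effect was 2.002 with it and 0.83 without it, beside 1.88 ± 0.81 in KO. The interaction was −0.12 ± 1.15, and 1.05 without that array. Mfap5 and Sparc, also matrix proteins, had KO effects of 1.70 and 0.87 and interactions of 0.20 ± 0.85 and −0.23 ± 0.56, or 1.05 and 0.35 without WT AngII 2. Bhmt2, a methyltransferase of methionine synthesis, had 0.63 in WT and 0.73 in KO. Of the lower genes, Snhg14, a long noncoding RNA, had −1.18 and −0.84, Fdft1, which encodes squalene synthase, −0.74 and −0.90, and Cnmd, which encodes chondromodulin, −0.96 and −0.80. Intervals of the interaction in this class were wide, from −2.63 to 2.40 for Postn, so a shared response is not shown to be of equal size. With the spike-in block Mfap5 and Fdft1 stayed in the class, whereas Postn, Sparc, Bhmt2, Snhg14 and Cnmd passed the rule in WT alone with no interaction past it.

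Among the markers of hypertrophy, Nppa, the atrial natriuretic peptide, had a shared response. It read 13.51 and 13.60 in WT PBS, 14.48, 13.90 and 14.05 in WT AngII, 13.37, 13.13 and 13.07 in KO PBS, and 13.95 and 14.05 in KO AngII. AngII arrays lay above PBS arrays in both genotypes, 1.5-fold in WT and 1.75-fold in KO, and the interaction was 0.23 ± 0.21 (95% interval −0.23 to 0.68). Without WT AngII 2 the WT effect was 0.41, under the rule's minimum, the interaction was 0.39 and Nppa passed as KO only. These values lie near the top of the scale (14.68), where differences are compressed. Nppb, the brain natriuretic peptide, read 13.84 and 13.49 in WT PBS, 13.12, 12.77 and 13.14 in WT AngII, 13.09, 12.07 and 11.34 in KO PBS, and 13.02 and 12.61 in KO AngII. WT AngII lay below WT PBS, the KO groups overlapped, and KO PBS 4 was the lowest array. Its interaction was 1.30 ± 0.51 (95% interval 0.18 to 2.43; 0.89 to 1.77 leaving out each array, 2.13 with the block, where it passed as opposite).

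Ankrd1, a cardiac ankyrin repeat protein of the sarcomere and nucleus, read 13.39, 13.39 and 13.36 in KO PBS and 13.67 to 13.91 on the 7 other arrays. Its effects were −0.05 ± 0.08 in WT and 0.38 ± 0.08 in KO, and the interaction 0.43 ± 0.12, a small difference on a bright probe set; the dimmer probe set gave 0.56. Xirp1, an actin-binding protein of the intercalated disc, had −1.19 ± 0.28 in WT, 0.01 ± 0.28 in KO and an interaction of 1.20 ± 0.39. Enah, an actin regulator, had 0.63 ± 0.25. Acta1, the skeletal alpha-actin re-expressed in hypertrophy, had 0.43 in both genotypes, with an interaction of 0.00 ± 0.18 (95% interval −0.40 to 0.41). Myh7, the slow myosin heavy chain, had an interaction of −0.16 ± 0.44. Over the 25 measured hypertrophic markers the median interaction was 0.25, 21 lay above 0 (48.6% of all genes) and 5 (20%) did so at an unadjusted p under 0.05 (0.945% of all genes). The median was 0.06 to 0.34 leaving out each array, lowest without WT PBS 3, and 0.41 with the block.

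In the pathway under study, AngII signalling genes gave a median interaction of −0.13 over 23 members, 7 above 0 (48.6% of all genes), with 0 at an unadjusted p under 0.05. Without WT AngII 2 the median was −0.07, and with the block also −0.07. Its smallest p was for Arrb2, a beta-arrestin of the AngII receptor, at −0.89 ± 0.45 (−0.51 without WT AngII 2). Agt, the precursor of angiotensin, had 0.37 ± 0.23, and the receptor gene Agtr2 read 3.88 to 4.23, near the bottom of the scale. Gnaq, which encodes alpha-q, had −0.12 ± 0.24 (95% interval −0.65 to 0.41), and its 7 probe sets ranged from −0.20 to 0.47. The related alpha subunit Gna11 had −0.45 ± 0.33, and 0.07 with the block.

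The ERK5 cascade gave a median of 0.02 over 14 members, 7 on either side of 0. Mapk7, which encodes ERK5, read 7.12 and 6.91 in WT PBS, 7.31, 7.14 and 7.22 in WT AngII, 7.03, 7.03 and 7.11 in KO PBS, and 7.20 and 7.22 in KO AngII. AngII arrays lay above PBS in both genotypes, by 0.21 ± 0.14 and 0.15 ± 0.14, and the interaction was −0.05 ± 0.19 (95% interval −0.48 to 0.37). Map2k5, the kinase that activates ERK5, had −0.27 ± 0.28 (95% interval −0.89 to 0.34), and Sqstm1, the scaffold p62 that binds atypical PKC, 0.09 ± 0.25. Sgk1, a kinase acting downstream of ERK5 and of corticoids, had 0.63 ± 0.28 (0.28 to 0.97 leaving out each array), the single member (7.14%, against 0.945% of all genes) above 0 at an unadjusted p under 0.05, and Klf4, a transcription factor that ERK5 induces, 0.71 ± 0.33 (1.23 with the block). The 13 PKC family genes had a median of 0.07, with 0 at an unadjusted p under 0.05, and Prkch, the isoform PKC eta, with the smallest p, at 0.22 ± 0.22.

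For the extracellular matrix, 1 array set the direction of the genotype difference. The 46 genes measured of 49 listed had median effects of 0.81 in WT and 0.56 in KO, and the median interaction was −0.24, with 15 above 0. Without WT AngII 2 it was 0.37, and with the spike-in block −0.07. On WT AngII 2 the list's level stood 1.96 over the all-array mean, where its other levels ranged from −0.61 to 0.19. In KO, 33 of the 46 genes had both AngII arrays above all PBS arrays, against 12.5% of all genes; in WT, 8 had all AngII arrays above PBS, against 7.87%. Thbs1, which encodes thrombospondin 1, had the smallest interaction p, at 1.27 ± 0.82 (2.07 without WT AngII 2). Mfap4, a microfibril protein, had −1.17 ± 1.12 and −0.05 without WT AngII 2.

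Markers of other cells moved with that array. The 13 fibroblast markers had a median interaction of −0.26, and 0.10 without WT AngII 2; the 15 macrophage markers had −0.07 and 0.41. The mean level of the fibroblast markers was 11.61 on WT AngII 2 and 9.49 to 10.45 elsewhere, and that of the macrophage markers 9.05 against 7.45 to 7.90. The 12 cardiomyocyte markers averaged 13.98 to 14.10 on every array, so the defining markers of heart muscle were present and bright, with a median interaction of 0.05. What sets WT AngII 2 apart was not tested. For endothelial, smooth muscle and lymphocyte markers the medians were 0.08, 0.09 and 0.03, and 0 members reached an unadjusted p under 0.05. The smooth muscle markers were also highest on WT AngII 2, at 10.03 against 9.19 to 9.72 elsewhere; their median was 0.21 without it and −0.10 without WT PBS 5. The endothelial median was 0.18 without WT AngII 2 and 0.24 with the block. Of the remaining cell type lists, atrial markers had −0.06, epicardial 0.11, adipocyte 0.06, erythroid −0.01 and Schwann and neuronal −0.02; Lrrn4, an epicardial marker, was the single gene of these at an unadjusted p under 0.05 (0.51 ± 0.21).

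**Figure D4:**
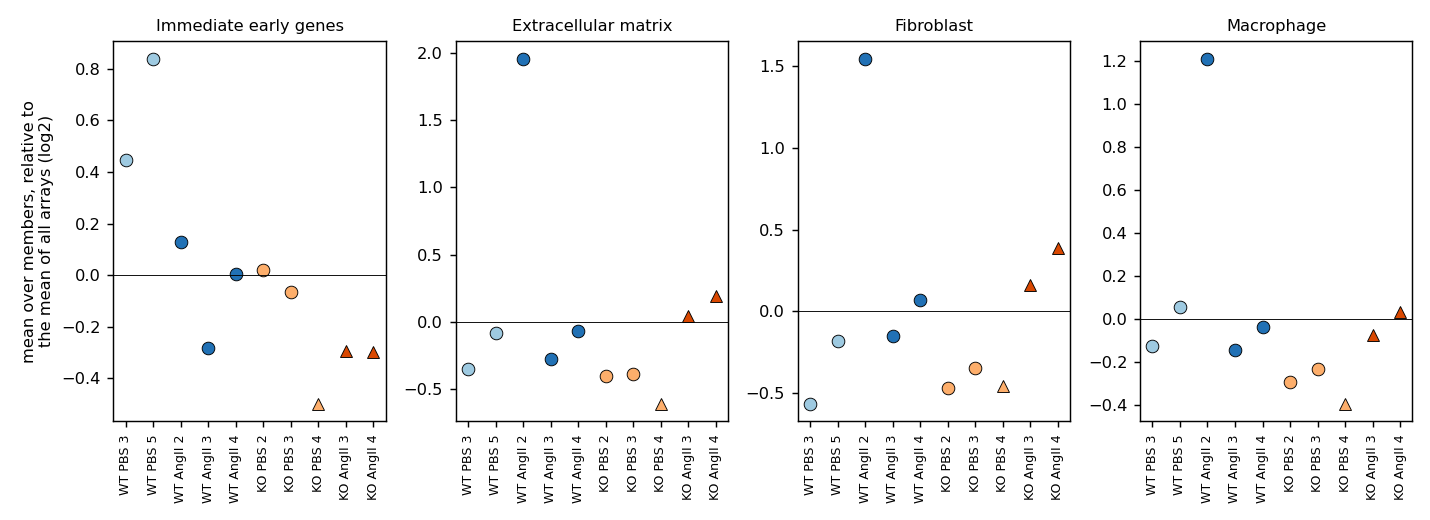
Each point is 1 array (x axis) and its mean log2 level over the members of a list relative to the mean of all arrays (y axis); triangles are the 3 arrays with low spike-in signal. The immediate early genes are highest on WT PBS 3 (0.45) and WT PBS 5 (0.84), whereas the matrix, fibroblast and macrophage genes are highest on WT AngII 2 alone.

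In the stress and metabolic lists, as in all others, no member passed the adjusted test. Heat shock and chaperone genes had a median interaction of 0.24, with 17 of 21 above 0 (48.6% of all genes) and Dnajb4 and Hsp90aa1, a co-chaperone and a chaperone, at an unadjusted p under 0.05 (0.47 ± 0.19 and 0.55 ± 0.23; 9.52% of the list, against 0.945% of all genes above 0). The median was 0.38 with the spike-in block and 0.10 with array weights. Hsp90aa1 read 11.68, 11.10 and 11.16 in KO PBS and 11.74 and 11.78 in KO AngII, and 11.54 to 11.78 in WT. Oxidative phosphorylation genes, subunits of the respiratory chain, had a median of 0.11 with 35 of 37 above 0 (48.6% of all genes) and 0 at an unadjusted p under 0.05; 36 lay below 0 in WT (median −0.13) and 23 in KO (median −0.01), against 51% and 52.1% of all genes for those effects. On WT AngII 2 the list lay 0.24 below the mean of all arrays, and without that array the median was 0.05. Fatty acid oxidation genes had median AngII effects of −0.28 in WT and −0.24 in KO, 31 of 31 and 30 of 31 below 0, and AngII arrays all below PBS arrays for 16 in WT (12.7% of all genes) and 17 in KO (13.5%). They had a median interaction of 0.09 (−0.02 without WT AngII 2). In that list 0 members reached an unadjusted interaction p under 0.05.

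Cytokines and chemokines had a median of 0.17 over 31 members, but −0.0072 without WT PBS 3, 0.46 without WT PBS 5 and 0.35 without WT AngII 2. The smallest p were those of Cxcl2, a neutrophil chemokine near the bottom of the scale, at 0.33 ± 0.15 and Ccl7, a monocyte chemokine, at 1.0005 ± 0.50. Ccl7 read 6.997 on WT PBS 3 and 5.07 to 5.86 on the other 9 arrays, so 1 array stood apart from all the others. Among insulin and FoxO targets, Foxo1 itself, a transcription factor of fasting, had −0.47 ± 0.21 (−0.25 with the block) and Bnip3, a mitophagy receptor, 0.39 ± 0.17. Among the antioxidant genes Mt2, a metallothionein, had 1.28 ± 0.56 beside Mgst1. Jph2, which holds the junction of T-tubule and sarcoplasmic reticulum, was the single gene of calcium cycling at an unadjusted p under 0.05 (0.57 ± 0.22).

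The remaining lists, of TGF-beta signalling, calcineurin, glycolysis, ER stress, cell cycle, circadian clock and ribosomal proteins, had medians between −0.12 and 0.11 and at most 1 member each at an unadjusted p under 0.05. These members were Chac1, Cenpf and Hlf, all in the KO only class.

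**Figure D5:**
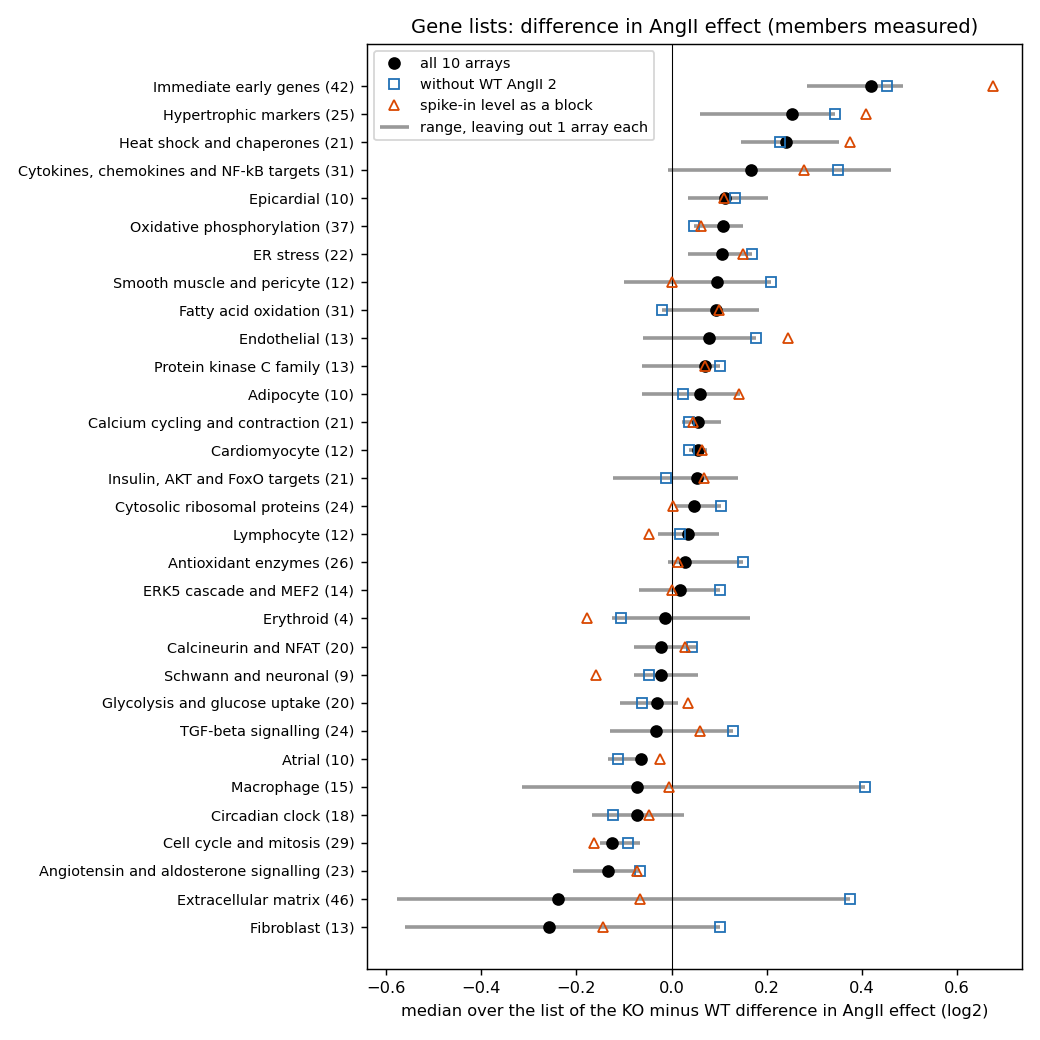
Points give the median interaction of each list (x axis, log2; number of genes measured in brackets) with all 10 arrays, without WT AngII 2 and with the spike-in block; grey lines give the range when each array is left out. Immediate early genes are highest, at 0.42, and matrix, fibroblast and macrophage genes pass from below 0 to above 0 without WT AngII 2.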

How the data were processed

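Transcript levels in heart RNA were measured on 10 one-colour Affymetrix arrays. As deposited, values are log2 expression from RMA (background correction, equalised distributions, probe summary), per the submitters' processing notes. The RMA version and the definitions of probe sets are unstated here. RMA shares information between arrays, so a distorted array can shift the others, and differences of dim probe sets are compressed. Array medians lay between 6.12 and 6.23 and values between 3.06 and 14.68. Arrays have no read depth, and their number limits the precision.

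Groups came from the titles. In R 4.3.3, limma 3.58.1 fitted a mean for each of 4 groups on 10 arrays (eBayes with trend; 6 residual degrees of freedom, 11.7 after moderation), and tests were two-sided. Benjamini-Hochberg adjustment ran over 45037 probe sets, and a call is an adjusted p under 0.05. The fit was tested on simulated data. GEO's platform annotation gave 1 symbol for 34945 probe sets, several for 932 and none used here for 9160; 34741 symbols were updated by Entrez identifier with RefSeq (GRCm38.p6).

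Named were 9 set genes (Acta1, Gnaq, Map2k5, Mapk7, Myh7, Nppa, Nppb, Prkcz, Sqstm1), up to 20 genes of smallest interaction p, up to 4 per class and direction, and up to 4 per described list by p; the names of some further list members, and the dimmer probe sets, were chosen after their values were seen. The comparison, members, 31 gene lists (20 pathways, 11 cell types) and alternatives were chosen with earlier results of these data known. Alternatives were equal array medians, repeated quantile normalisation, brighter probe sets only, array weights, robust eBayes or no trend, a block for title number or spike-in level, and leaving out each array; a lone array left in a group is assumed to vary like the others.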

Additional observations from a re-analysis of the deposited data

How the results depend on the processing

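The interaction gave 0 calls in limma with equal array medians (770 at an unadjusted p under 0.05), repeated quantile normalisation (860) or brighter probe sets only (281 of 22519). Robust eBayes (709), no trend (648), array weights (3201, 7.11% of probe sets), the spike-in block (700) and that block without WT AngII 2 (2102) also gave 0. Leaving out each array gave 0 to 2 calls (488 to 1551 at an unadjusted p under 0.05). The WT effect gave 262 calls with array weights, 20 with the spike-in block without WT AngII 2, 1 with eBayes robust and 0 to 3 leaving out each array, and the KO effect 0 to 3 leaving out each array; the cause was not tested, except that leaving an array out leaves fewer samples. The array weights were 7.20 for WT AngII 4, 0.22 for WT AngII 2 and 0.65 for WT AngII 3. The weighted WT AngII mean therefore rests mostly on 1 array. For the shared, WT only, KO only and opposite classes in turn, counts were 130, 527, 247 and 10 with array weights, 16, 186, 57 and 17 with the spike-in block, and 38, 621, 186 and 37 with that block without WT AngII 2. They were 3, 31, 6 and 0 at a minimum difference of 1, 299, 347, 192 and 12 with no minimum, 0 in each with adjusted p-values, and 23, 57, 18 and 1 with 1 probe set a gene, the last 4 settings by construction. The opposite class held 2 among brighter probe sets and 2 without trend. Leaving out each array gave 20 to 159, 80 to 390, 28 to 542 and 2 to 14. Of 31 lists, 19 had a median above 0, and 15 to 22 leaving out each array.

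Correlated deviations cannot show whether title numbers pair the arrays, because deviations from a group mean cancel out within each group. Same-numbered arrays of different groups had deviations correlated at −0.36 to 0.10 (10 pairs, 1 above 0.1). Differently numbered arrays had −0.31 to 0.31 (27 pairs, 5 above 0.1). With the number as a replicate block the interaction gave 0 calls (886 at an unadjusted p under 0.05), the WT effect 1, and the classes 15, 282, 126 and 24. The shared and WT only classes then held 5 and 66 probe sets of the fit without the block.

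Of 695 settings over 36 genes, 28 turned the sign of the interaction, and none passed the adjusted test. The sign turned in 7 genes, whose interaction with all arrays ran from −0.27 (Map2k5) to 0.09 (Sqstm1). With the replicate block the interaction was −0.0613 for Prkcz, 0.114 for Mapk7 and 0.286 for Myh7. With the spike-in block without WT AngII 2 it was −0.0633 for Prkcz, 0.0659 for Map2k5, 0.0705 for Gnaq and 0.146 for Myh7, and with the spike-in block alone −0.0317 for Sqstm1. Array weights gave 0.0055 for Gnaq and 0.0675 for Myh7, and averaging each gene's probe sets −0.0262 for Prkcz and 0.0461 for Gnaq. Acta1 had −0.0046 with equal array medians and −0.0496 with repeated quantile normalisation. Leaving out each array gave −0.160 to 0.0549 for Mapk7, −0.243 to 0.0308 for Gnaq, −0.0306 to 0.299 for Sqstm1, −0.509 to 0.181 for Myh7 and −0.203 to 0.207 for Acta1. With 2 or 3 arrays a group, differences under about 1 log2 unit are within the interval of many genes.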

Other observations

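Probe sets that are not the brightest of their gene, or have no gene name here, are values outside the gene comparisons and were chosen by their unadjusted interaction p or after their values were seen. A dim probe set of Spry4, which encodes an inhibitor of receptor tyrosine kinase signalling, had the smallest p of all 45037. It read 6.30 and 6.37 in WT PBS, 4.84, 4.997 and 5.22 in WT AngII, 4.89, 5.20 and 4.78 in KO PBS, and 4.88 and 4.97 in KO AngII. WT PBS stood above the other arrays, and the interaction was 1.29 ± 0.21 (adjusted p = 0.99999; 1.20 to 1.41 leaving out each array). The brightest Spry4 probe set gave 0.48. The WT effect also differed in sign within the gene, at −1.31 for the dim probe set and 0.50 for another. A dimmer probe set of Atf4, a transcription factor of the integrated stress response, read 7.69 and 7.87 in WT PBS and 6.41 to 7.26 on the other arrays, with an interaction of 1.30 ± 0.27. A dimmer probe set of Cxcl14, a chemokine, read 7.82, 7.64 and 7.99 in KO PBS and 8.40 and 8.52 in KO AngII, with an interaction of 0.99 ± 0.22. Of the 4 opposite probe sets, 3 are dimmer probe sets of Prepl, Slmap and Fbxo32; Slmap, a membrane protein of the sarcolemma, had −0.62 ± 0.24 in WT and 0.65 ± 0.24 in KO.

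The 4 interaction calls made on leaving out an array each rest on a group with 1 array left. Without WT PBS 5, Ccl2, a monocyte chemokine, had an interaction of 2.93 (adjusted p = 0.0074), against 1.42 with all arrays. Without KO AngII 3, Rnase2a, an eosinophil ribonuclease, had 2.72 (adjusted p = 0.027) against 1.30, and an unnamed probe set 1.85 against 0.94. Without KO AngII 4, Gdpd3, a phosphodiesterase, had −4.84 (adjusted p = 0.0015) against −2.28.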
